A study of Homo sapiens with 7 samples.

Results

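The MYC, MAX and MXD network was represented by 10 genes, MYC, MYCN, MYCL, MAX, MXD1, MXD3, MXD4, MXI1, MNT and MGA, of the 19970 protein-coding genes annotated on chromosomes 1 to 22 and X. The genes were chosen by name, and every peak that overlapped 2000 bp upstream to 500 bp downstream of any of their annotated transcription start sites (TSSs), or that lay within the gene, was collected. Chromatin occupancy of Rb, the retinoblastoma protein, was mapped with CUT&RUN, which uses an antibody-tethered nuclease to cut out the DNA beside a bound protein. The cells were ZR-75-1, a breast cancer line that is well established and expresses the oestrogen receptor, and the peak lists carry no expression values against which that identity could be checked. Parental cells received DMSO or 500 nM of the CDK4/6 inhibitor palbociclib for 4 days, with 2 libraries each for the Rb antibody. RB1 knockout (KO) cells, which were CRISPR-edited and sorted as single cells so that they may represent a single clone, gave 1 Rb library with DMSO and 1 with palbociclib. A further library of palbociclib-treated parental cells used a non-targeting IgG2a antibody.

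MYC proteins are basic helix-loop-helix leucine zipper transcription factors that bind DNA as dimers with MAX. MYC–MAX dimers bind the E-box, for which CACGTG is the canonical sequence, and promote transcription of genes for growth and biosynthesis. MXD proteins, MXI1 and MNT also pair with MAX and recruit SIN3 corepressors to E-boxes, whereas MGA joins MAX in a variant Polycomb complex that contains E2F6. MYC is a classical E2F-regulated gene, and Rb represses E2F target promoters while it is hypophosphorylated, the state that CDK4/6 inhibition favours.

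Stretches at the antagonists MXD4, MXD3 and MNT and at MYCL are shown because each holds the summit of an Rb peak called with palbociclib. They are hg38 reference sequence, read 5′ to 3′ on the minus strand on which all 4 genes lie, and no stretch contains annotated untranslated sequence. Capitals mark matches, on either strand, to CACGTG (E-box), CCAAT (NFY), GGGCGG (SP/KLF), TTTGAA (CHR), GCGCANGCGC (NRF1) and the E2F words TTTCGCGC, TTTGGCGC, TTTCCCGC and TTTGCCGC. The MXD4 stretch, chr4:2262146-2262445, lies upstream of the gene. The MXD3 stretch, chr5:177312267-177312566, lies upstream of the canonical TSS in an intron of longer transcripts. The MNT stretch, chr17:2392751-2393050, is intronic apart from its last 10 bases, which belong to the first exon of MNT-204, a transcript without a defined coding sequence, and the MYCL stretch, chr1:39902004-39902140, is intronic in a longer transcript.
MXD4: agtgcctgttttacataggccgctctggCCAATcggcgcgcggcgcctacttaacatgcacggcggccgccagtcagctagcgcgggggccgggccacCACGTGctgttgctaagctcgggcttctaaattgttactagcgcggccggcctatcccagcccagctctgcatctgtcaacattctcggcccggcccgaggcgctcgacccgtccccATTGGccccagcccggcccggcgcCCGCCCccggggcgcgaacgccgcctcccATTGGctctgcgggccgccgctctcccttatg
MXD3: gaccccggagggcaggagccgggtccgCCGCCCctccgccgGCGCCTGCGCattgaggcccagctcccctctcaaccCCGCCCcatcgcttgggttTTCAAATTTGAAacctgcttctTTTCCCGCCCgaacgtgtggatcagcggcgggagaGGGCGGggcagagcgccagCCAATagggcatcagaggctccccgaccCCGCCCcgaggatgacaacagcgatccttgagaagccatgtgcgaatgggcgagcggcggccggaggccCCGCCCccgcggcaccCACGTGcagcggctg
MNT: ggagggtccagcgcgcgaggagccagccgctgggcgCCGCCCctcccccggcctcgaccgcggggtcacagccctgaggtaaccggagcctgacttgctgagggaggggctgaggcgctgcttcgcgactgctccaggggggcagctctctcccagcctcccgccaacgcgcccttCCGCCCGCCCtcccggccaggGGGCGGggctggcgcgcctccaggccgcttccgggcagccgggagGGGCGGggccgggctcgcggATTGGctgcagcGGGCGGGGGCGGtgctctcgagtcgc
MYCL: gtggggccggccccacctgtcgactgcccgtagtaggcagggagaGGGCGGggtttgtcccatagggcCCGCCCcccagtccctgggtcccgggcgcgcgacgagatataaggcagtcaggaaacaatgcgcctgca
In the MXD4 sequence the E-box begins at base 99, and the palbociclib summits fell on bases 109 and 192. NFY matches begin at bases 29, 216 and 269. In the MXD3 sequence the summits of DMSO replicate 2 and palbociclib replicate 2 fell on bases 229 and 250, between an E2F match at base 119 and an E-box at base 286. The MXD3 stretch was placed by the palbociclib replicate 2 summit, and the summits of DMSO replicate 1 and palbociclib replicate 1 lay outside it. A pair of abutting CHR matches begins at bases 97 and 103, and the E2F match shares its last bases with an SP/KLF match at base 123. The MNT sequence holds 7 SP/KLF matches and 1 NFY match, and the MYCL sequence holds 2 SP/KLF matches.

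More network promoters carried an Rb peak with palbociclib than with DMSO, and none did in the RB1 KO or IgG2a libraries. A promoter peak was called at 2 and 3 of the 10 genes in the DMSO libraries, where 5.22% and 4.28% of all protein-coding genes had one. With palbociclib, peaks were called at 6 and 7 of the 10, where the shares of all genes were 39.6% and 39%. The group means were 2.5 ± 0.71 and 6.5 ± 0.71 genes (SD, n = 2), which differ by 4 genes with an exact permutation p of 0.333 (two-sided). With 2 libraries against 2, 0.333 is the smallest p the design allows, so no comparison between these groups could pass 0.05. Any measure that does not overlap between the groups gives this p, whatever the spread between libraries. None of the 10 genes had a promoter or gene-body peak in the RB1 KO lists, where 0.00501% and 0.00501% of genes had a promoter peak, or in the IgG2a list, where 1.95% did. More bound cells and more Rb per cell cannot be told apart in bulk libraries.

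MYC, MYCL, MXD3, MXD4, MXI1 and MNT had a promoter peak in both palbociclib lists, 6 of 10 against 34.9% of all genes. Genes with more annotated TSSs have more window in which a peak can fall. The 10 genes had from 3 (MYCN) to 37 (MXI1) distinct TSSs, against a median of 5 over protein-coding genes. With the canonical TSS alone 5 of the 10 were called in both, and the share of all genes was not computed for that setting. MYC and MXD3 had one in both DMSO lists, 2 of 10 against 2.9%. MXD4 was called in DMSO replicate 2 alone and MXD1 in palbociclib replicate 2 alone, whereas MYCN, MAX and MGA were called in no list. A gained peak, meaning a region called in both palbociclib lists that overlapped no peak of either DMSO list, was present at MYCL, MXI1 and MNT, 3 of 10 against 28.5%. The direction of the count depended on list length, which was 996 and 816 peaks with DMSO and 8399 and 8256 with palbociclib. Every parental list was then cut to its 816 peaks of best q-value, the length of the shortest. The DMSO lists held 2 and 3 of the genes, and the palbociclib lists held 1, MXD3, and 0. This cut set unlike thresholds. The weakest peak kept had a −log10 q of 43.4 in each palbociclib list, against 2.59 in DMSO replicate 1 and 1.33 in DMSO replicate 2. The share of all genes was not computed at this length, so whether the reversal was particular to these genes was not tested.

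**Figure D1:**
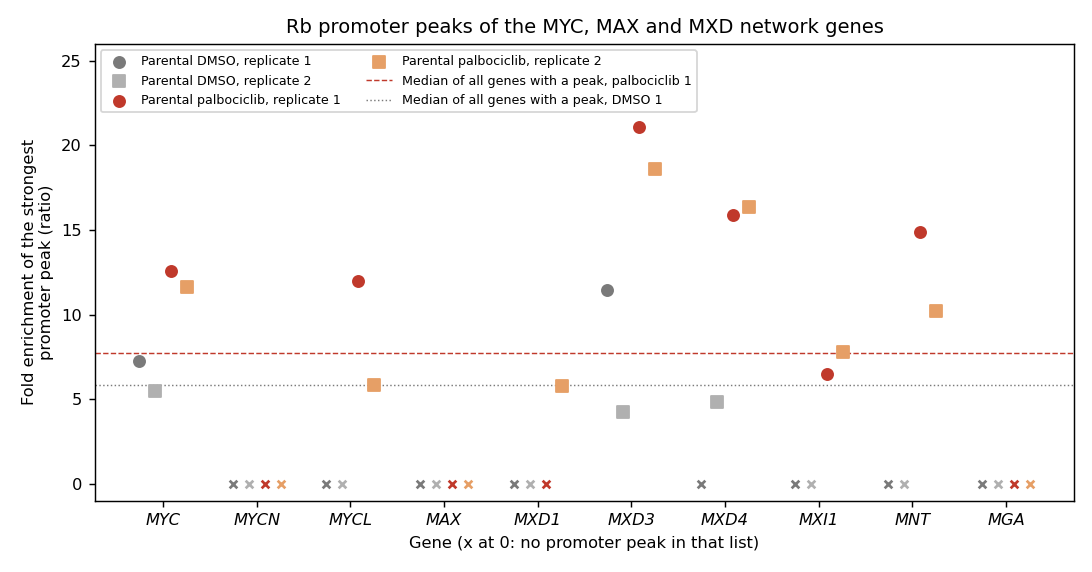
Fold enrichment (ratio, vertical axis) of the strongest Rb promoter peak of each network gene (horizontal axis) in the 4 parental libraries, with circles for replicate 1, squares for replicate 2, and a cross at 0 where no promoter peak was called; the lines are medians over all genes with a peak in the named library. MXD3 was highest with palbociclib at 21.1 and 18.6, and MYCN, MAX and MGA had no peak.

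For fold enrichment, the authors' caller divides the fragments piled up at a summit by the local background, after adding the same constant to both. The value is therefore lower than the plain quotient of pileup and background. Fold enrichment was summed over the strongest promoter peak of each gene, with 0 for a gene without a called peak. The sums thus also carry the difference in the number of genes called. The sums were 18.8 and 14.5 with DMSO and 82.9 and 76.2 with palbociclib, a ratio of means of 4.78 (exact permutation p = 0.333, n = 2 per group). Promoter peaks averaged 358 and 202 bp in width with DMSO and 680 and 672 bp with palbociclib, a ratio of 2.41 (exact permutation p = 0.333). Together they covered 716 and 607 bp with DMSO and 6117 and 6051 bp with palbociclib. None of these measures overlapped between the groups, and the same held for width over all genes. Their strongest promoter peaks averaged 340 and 287 bp with DMSO and 581 and 564 bp with palbociclib. Sums and covered lengths over all genes were not computed. Of the 23 promoter peaks in the parental lists, 22 had a summit within 500 bp of a TSS of the gene. The peaks were selected for overlap with a window around any annotated TSS, so summits near a TSS were favoured by that choice. The share over all genes was not computed. Sequencing depth could be judged only from the smallest local background of each list, which ranged from 0.465 to 0.571 in the parental Rb lists and from 0.446 to 0.655 in the control lists.

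Among the MYC paralogues, MYC itself was called in every parental Rb list. Fold enrichment at MYC was 7.27 and 5.48 with DMSO and 12.6 and 11.6 with palbociclib. Both palbociclib values were above both DMSO values, with a ratio of means of 1.90 (log2 difference 0.94, exact permutation p = 0.333). The peak widened from 256 and 198 bp to 1071 and 963 bp, and the joined region covered by the overlapping palbociclib peaks was chr8:127735262-127736470 (hg38). The summits lay nearer to the canonical TSS with palbociclib, at 121 and 124 bp upstream, than with DMSO, at 244 and 231 bp upstream. The palbociclib summits were 26 and 23 bp downstream of the start of a longer coding transcript, MYC-202. The promoter window of CASC11, a non-coding RNA gene beside MYC, overlaps the same peaks, so the signal cannot be assigned to MYC alone.

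The fold enrichment and p-value of a peak together give the whole number of fragments piled up at its summit. At MYC these pileups were 17 fragments (95% exact Poisson interval 9.90 to 27.2) and 13 (6.92 to 22.2) with DMSO, and 42 (30.3 to 56.8) and 41 (29.4 to 55.6) with palbociclib. The intervals cover counting error only. The DMSO and palbociclib intervals did not overlap. These pileups were not scaled for depth, and the share of all genes with such intervals was not computed. Local background at MYC was 1.47 and 1.56 with DMSO and 2.42 and 2.61 with palbociclib.

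MYCL, a paralogue first found amplified in small cell lung cancer, had a peak with palbociclib only. Fold enrichment at MYCL was 12.0 and 5.86 in the palbociclib replicates, on 19 (11.4 to 29.7) and 9 (4.12 to 17.1) fragments. The replicates differed by a ratio of 2.05, larger than for 97.9% of the 6974 genes with a promoter peak in both palbociclib lists, whose median was 1.21. The joined palbociclib region, chr1:39901881-39902431, spanned the canonical TSS, with summits 256 and 217 bp upstream of it. In the DMSO lists the nearest peaks were at CAP1, 138210 and 138065 bp away. MYCN, the paralogue amplified in neuroblastoma, had no Rb peak nearby: the nearest palbociclib peaks, at the shared promoter of GEN1 and SMC6, were 1810130 and 1809961 bp away.

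MAX, the shared partner of the network proteins, had no promoter or gene-body peak in any list. The nearest palbociclib peaks were at FNTB, 114632 and 114684 bp from a MAX TSS, with fold enrichments of 10.2 and 11.7. With DMSO the nearest peaks were 310022 and 561151 bp away. MGA, the scaffold of the variant Polycomb complex, was likewise uncalled, and the closest palbociclib peaks lay beyond the end of the gene at MAPKBP1, with fold enrichments of 4.42 and 4.44. A promoter without a called peak is below the calling threshold and is not shown to lack Rb. The lowest fold enrichments called on chromosomes 1 to 22 and X were 2.39 and 2.36 in the palbociclib lists.

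MXD3, an antagonist expressed in proliferating cells, had the highest fold enrichment of the network in both palbociclib lists. Its values were 11.5 and 4.22 with DMSO and 21.1 and 18.6 with palbociclib. Both palbociclib values exceeded both DMSO values, with a ratio of means of 2.53 (log2 difference 1.51, exact permutation p = 0.333). The ratio was 4.70 without DMSO replicate 1 and 1.73 without DMSO replicate 2. The peak in DMSO replicate 2 rested on 7 fragments (2.81 to 14.4) and had a −log10 q of 1.33, the lowest in that list, against 23 fragments (14.6 to 34.5) in DMSO replicate 1. The palbociclib pileups were 45 (32.8 to 60.2) and 37 (26.1 to 51.0).

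Peak width at MXD3 was 460 and 277 bp with DMSO and 1446 and 1287 bp with palbociclib, and the joined palbociclib region was chr5:177311470-177312915. Within this broad peak the summits did not coincide: palbociclib replicate 1 had its summit 199 bp downstream of the canonical TSS, and palbociclib replicate 2 had its summit 419 bp upstream, near those of the DMSO peaks at 285 and 440 bp upstream. Each palbociclib list held a further peak within MXD3, with fold enrichments of 8.07 and 9.11. That peak lay at the promoters of PRELID1 and RAB24, 8031 and 7953 bp downstream of the canonical MXD3 TSS.

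MXD4, which is expressed in differentiating cells, had fold enrichments of 15.9 and 16.3 with palbociclib and 4.83 in DMSO replicate 2, with no peak in DMSO replicate 1. The palbociclib replicates differed by a ratio of 1.03. The palbociclib pileups were 38 (26.9 to 52.2) and 41 (29.4 to 55.6) fragments, and the DMSO peak had 10 (4.80 to 18.4). Widths were 643 and 870 bp with palbociclib and 132 bp with DMSO. The summit of DMSO replicate 2 lay 422 bp upstream of the TSS, and the palbociclib summits lay 228 and 145 bp upstream. The E-box printed above lay between the DMSO summit and both palbociclib summits. A shift of the summit was not tested, since only 1 DMSO library had a peak. The joined palbociclib region was chr4:2261827-2262696. A weaker palbociclib replicate 1 peak of 4.70 lay in the first part of the gene, 791 bp downstream of the TSS.

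MXI1, the antagonist also known as MXD2, had fold enrichments of 6.47 and 7.81 with palbociclib and no DMSO peak. Both were near the medians over all genes with a promoter peak in those lists, 7.75 and 7.75. The peaks were not at the canonical TSS but at internal coding starts 18922 and 18351 bp downstream of it, at chr10:110225784-110226936, and palbociclib replicate 2 had a further peak of 4.27 in that region. With the canonical TSS alone, MXI1 had no promoter peak. MXD1, the founding antagonist, had 1 peak, of 5.81 on 8 fragments (3.45 to 15.8) in palbociclib replicate 2, with its summit 93 bp downstream of the canonical TSS. In palbociclib replicate 1 the nearest peak was 68090 bp away, at GMCL1.

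MNT, a broadly expressed MAX partner that opposes MYC, had fold enrichments of 14.9 and 10.2 with palbociclib on 26 (17 to 38.1) and 18 (10.7 to 28.4) fragments. These strongest peaks lay 8204 and 8115 bp downstream of the canonical TSS, at starts of transcripts without a defined coding sequence, within chr17:2392706-2393959. In palbociclib replicate 1 this region was split into peaks of 14.9 and 10.9, and in palbociclib replicate 2 it was 1 peak of 1166 bp. Near the canonical TSS each palbociclib list held a weaker peak, of 6.09 with its summit 952 bp upstream in replicate 1 and of 5.39 with its summit 98 bp upstream in replicate 2. Those peaks did not overlap each other. In both DMSO lists the nearest peak was at RPA1 and SMYD4, 558404 and 558387 bp away.

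**Figure D2:**
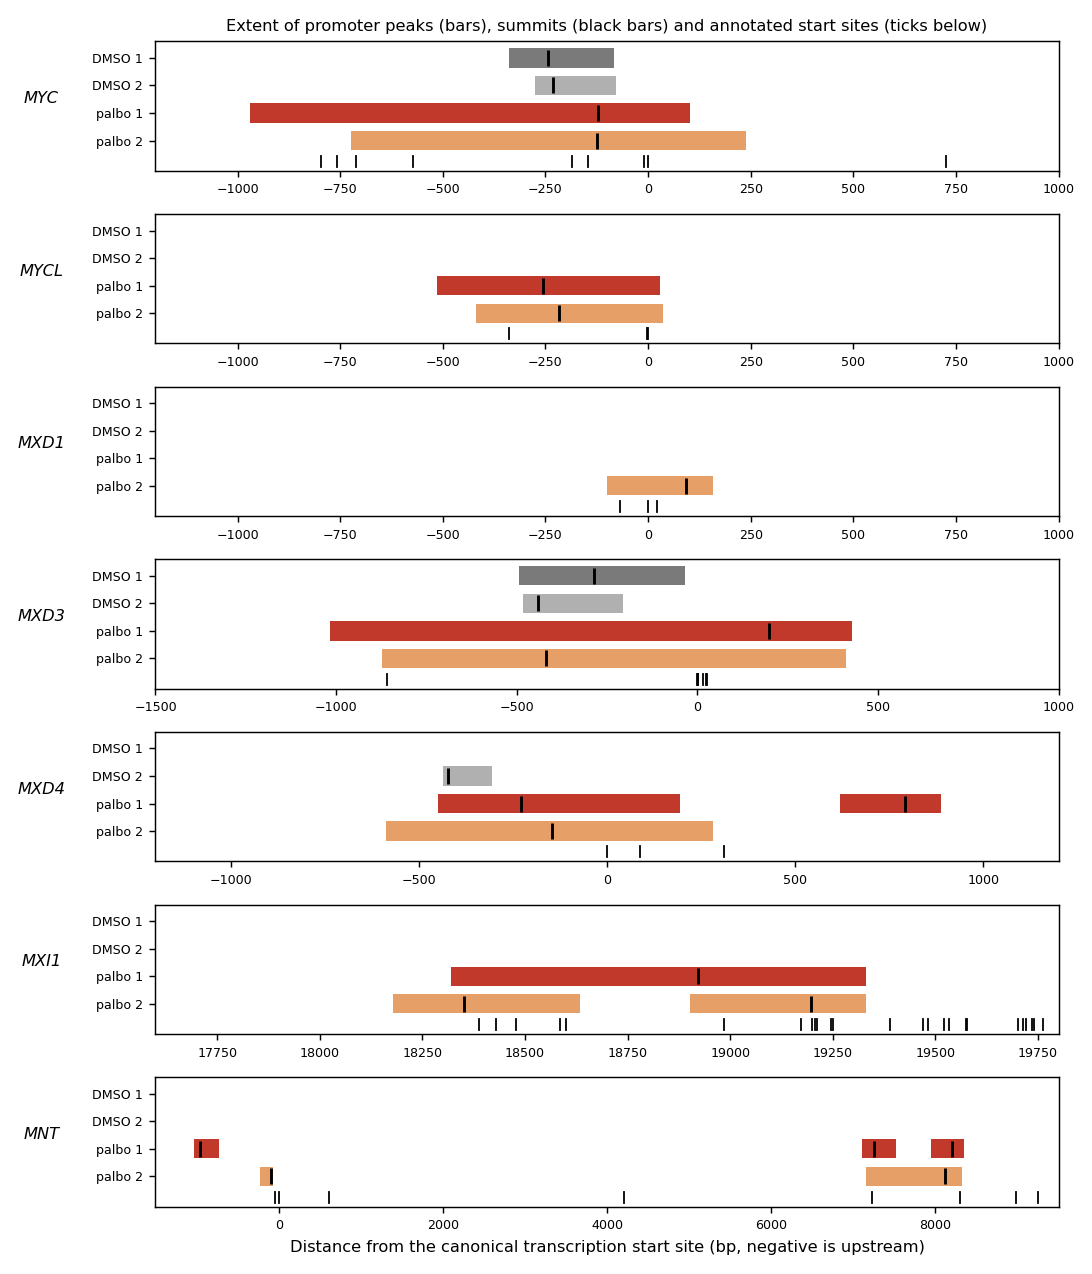
Extent of Rb promoter peaks (coloured bars) at the 7 network genes with a peak, by distance from the canonical TSS (bp, horizontal axis; scales differ between panels), with 1 row per parental library, summits as black bars and annotated TSSs as ticks underneath. The MYC and MXD3 peaks were wider in both palbociclib lists than in both DMSO lists, and the MXI1 and strongest MNT peaks had summits 8115 bp or more downstream of the canonical TSS.

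MYC had a lower ratio of fold enrichment between treatments than most genes already bound with DMSO, and the place of MXD3 depended on 1 library. Of the 580 genes with a promoter peak in all 4 parental lists, 100% had higher fold enrichment in both palbociclib lists than in both DMSO lists, and 100% had a wider strongest peak, so non-overlap at MYC and MXD3 was the background. The median ratio of fold enrichment was 3.65 (quartiles 3.08 and 4.38). The MYC ratio of 1.90 was higher than that of only 5 of the 580 genes, and the MXD3 ratio of 2.53 was higher than that of 50. Without DMSO replicate 1 the MXD3 ratio of 4.70 was higher than that of 448 genes, above the median of 3.76, and without DMSO replicate 2 the ratio of 1.73 was higher than that of 7. The MYC ratio was higher than that of 2 to 18 genes with any of the 4 libraries left out. By summit pileup, scaled by the smallest background of each list, the MYC ratio was 2.71 and higher than that of 54 genes, and the MXD3 ratio was 2.80 and higher than that of 67, against a median of 3.78. Width behaved otherwise: the ratios were 4.48 for MYC and 3.71 for MXD3 against a median of 2.66. These ranks describe single pairs of values, and no test of a difference from other genes was made.

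**Figure D3:**
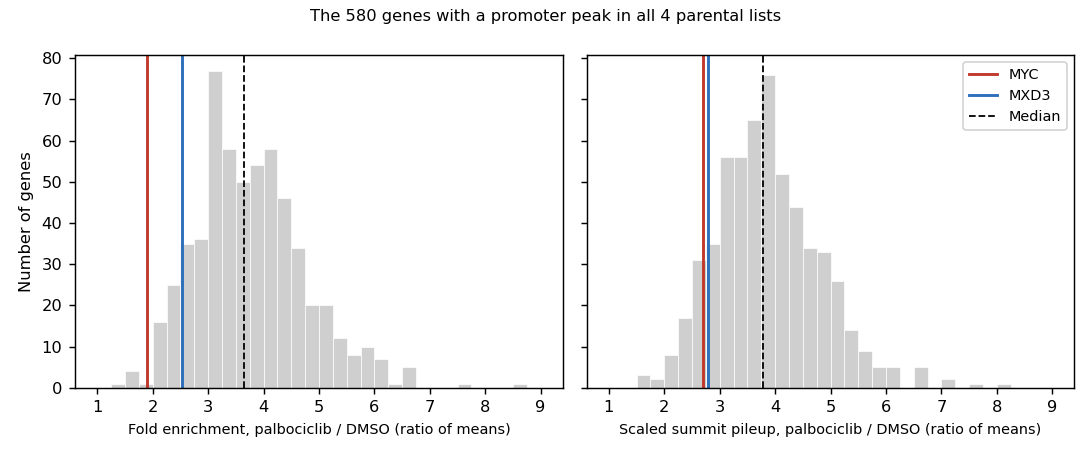
Number of genes (vertical axis) by palbociclib over DMSO ratio of group means, for fold enrichment (left) and for summit pileup scaled by the smallest background of each list (right), over the 580 genes with a promoter peak in all 4 parental lists. The MYC lines stand at 1.90 and 2.71 and the MXD3 lines at 2.53 and 2.80, below the dashed medians of 3.65 and 3.78.

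By the distance between log2 fold enrichments over the 4 parental lists, the genes most like MXD3 among 563 candidates were FADS2, TMEM258 and FEN1. They share 1 peak on chromosome 11, with fold enrichments of 19.8 and 19.9 with palbociclib and of 8.24 and 4.91 with DMSO. The distance of 0.54 is a description over 4 libraries.

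Matches to the motifs were then counted within 100 bp of the strongest palbociclib summit of the 7 genes with a peak. An E-box was present at MXD4 alone, and 5.23% of the 8735 protein-coding genes with a palbociclib promoter peak and 5.67% of all canonical TSS windows of that length held one. For MXD3 this depended on the summit used, that of palbociclib replicate 1, from which its E-box was 580 bp away. In genome coordinates that E-box was at 96 and -59 bp from the DMSO summits and -38 bp from the palbociclib replicate 2 summit. An MXD3 NFY match was likewise 75 bp from the palbociclib replicate 2 summit. An E2F match was present at MYC alone, 61 and 64 bp from the palbociclib summits, against 5.60% and 2.82%. SP/KLF matches were present at all of the 7 but MXD1, against 67.4% and 53.7%, and NFY matches at MXD4 and MNT, against 25.2% and 25.2%. CHR, NRF1, ETS (CCGGAAGT) and CRE (TGACGTCA) matches were absent from these windows, which held them at 3.32%, 7.03%, 3.45% and 1.24% of genes with a palbociclib peak. Over the whole palbociclib region, 1446 bp at MXD3 and 1254 bp at MNT, MXD3 held 2 E2F matches and MNT held 1. The MXD3 region also held 1 E-box, 2 CHR, 1 NRF1, 3 NFY and 16 SP/KLF matches. The MNT region also held 1 NRF1, 1 CRE, 1 NFY and 15 SP/KLF matches. MXI1 and MYCL held no motif other than SP/KLF. Shares over all genes were not computed for whole regions.

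The wider network was described through 6 lists of other genes, chosen with earlier results of these data known. Of their 70 genes, 47 (67.1%) had a promoter peak in both palbociclib lists against 34.9% of all genes, 3 (4.29%) in both DMSO lists against 2.9%, and 39 (55.7%) had a gained promoter peak against 28.5%. Of the MLX branch, which parallels MAX, 1 of 3 genes was called in both palbociclib lists, MLX itself at 5.45 and 7.22. Of the SIN3 corepressor genes through which MXD proteins act, 7 of 11 were called in both palbociclib lists. SIN3A, the scaffold of that complex, had fold enrichments of 49.8 and 65.9 with palbociclib and of 14.5 and 13.2 with DMSO, above those of any MXD gene in the same lists, and its partner ARID4B had 20.2 and 19.7 with palbociclib alone. Of the MGA-associated Polycomb genes 8 of 11 were called in both, led by TFDP1, the E2F dimerization partner, at 14.0 and 13.6, and the adaptor WDR5 at 13.7 and 13.8. CBX1, of the same list, was the only gene of the 70 with a control peak, at 4.34 in the IgG2a list.

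Of the MYC coactivator genes 8 of 14 were called in both palbociclib lists, where the share of all genes was 34.9%. ACTL6A, a subunit of chromatin remodelling and acetyltransferase complexes, had 5.62 and 6.38 with DMSO and 35.9 and 26.5 with palbociclib, and the ATPase RUVBL1 had 13.5 and 12.5 with palbociclib. Of the genes for MYC turnover 10 of 13 were called in both palbociclib lists. The deubiquitinase USP37 had 25.3 and 16.9 with palbociclib and 9.33 in DMSO replicate 2. Of 18 well-known MYC target genes 13 were called in both palbociclib lists and 1 in a single one. With DMSO 0 were called in both lists, against 2.9% of all genes, and 4 in a single one. The shares of all genes called in a single list of a group were not computed. LDHA, lactate dehydrogenase A, led at 29.8 and 25.7 with palbociclib and 7.90 in DMSO replicate 2. PPAT, of purine synthesis, followed at 18.8 and 22.6, with 4.26 in DMSO replicate 1.

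**Figure D4:**
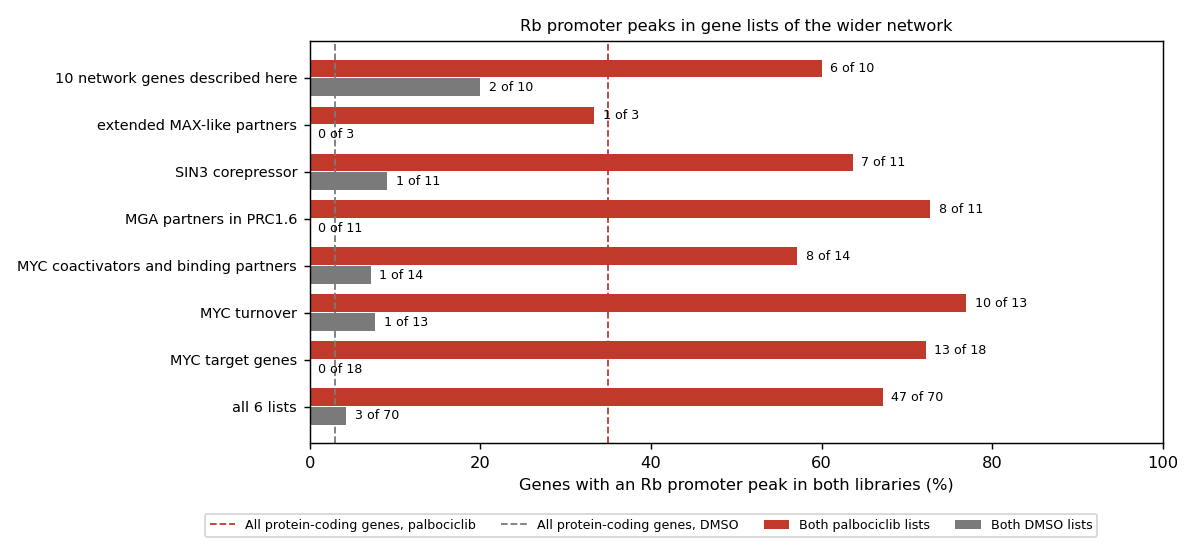
Share of genes (%, horizontal axis) with an Rb promoter peak in both palbociclib libraries (red) and both DMSO libraries (grey) for the 10 network genes and for the 6 lists of other genes (vertical axis), with counts beside the bars and dashed lines at the shares of all protein-coding genes, 34.9% and 2.9%. The red bar was above its line for every list but the MAX-like partners, with 1 of 3 genes.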

How the data were processed

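Rb or IgG2a CUT&RUN was performed in 7 libraries, grouped by sample title. Per the methods, the authors trimmed and aligned reads (Bowtie2 2.3.4.1, hg38), discarded those in blacklisted regions or the mitochondrial genome, kept duplicates, and called peaks per library with MACS2 2.2.7.1 against IgG at a q-value of 0.05; the control for the IgG2a list is not given in the sources used here. The deposited peak lists give fold enrichment (a ratio), −log10 p-value and −log10 q-value, a score derived from the q-value that was not used, and start, end and summit. Promoters were taken from GENCODE 44, whose build matched, with an overlap of at least 1 bp. Overlapping peaks of both replicates were joined. Pileup and background were recovered from fold enrichment and p, and the recovered values missed the deposited −log10 p by at most 0.0055. Groups were compared with exact permutation tests over libraries, two-sided, with scipy 1.17.1 and pandas 2.3.3. Overlap and recovery were tested on simulated data.

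The 10 genes, the 6 lists and the motifs were chosen with earlier results of these data known. Named genes of each list were the 2 with the highest mean palbociclib fold enrichment and those with a peak in both DMSO lists or a control list. Of the MAX-like list MLX alone had values. A gene that this rule names is not reported here. Read totals are unknown, so no depth-based limit is given. The labels do not say whether replicate numbers pair the libraries. The correlation of same-numbered deviations was 0.065 over 580 genes, which cannot settle it, and the libraries were treated as unpaired. Alternatives were stricter thresholds, equal list lengths, other promoter definitions and leaving out each library.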

Additional observations from a re-analysis of the deposited data

How the results depend on the processing

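Of 74 recomputed values, 67 kept their direction or, for counts, stayed within 1.5 times the reported count. A further 5 counts moved more and 2 values reversed. Some of the 67 could not differ. A replicate block leaves a difference or ratio as it was. Summing over promoter peaks changes nothing at MYC and MXD3, which had 1 promoter peak per parental list. Sizes moved more: the ratio of summed fold enrichment was 8.18 at a −log10 q of at least 5 and 6.57 with peaks under 5-fold enrichment left out, the width ratio was 4.00 for the strongest peaks of the genes called in all 4 lists, and 4 genes were called in both palbociclib lists with 50% reciprocal overlap. With lists of equal length (816 peaks each), the palbociclib minus DMSO difference in genes with a promoter peak was -2, the ratio of summed fold enrichment was 0.633, and 0 genes were called in both palbociclib lists or gained, because the limit removed most palbociclib peaks. Genes called in both DMSO lists numbered 0 at a −log10 q of at least 5 and 1 at a fold enrichment of at least 5. With the canonical TSS alone 1 gene was gained. Leaving out 1 library at a time gave differences of 3.5 to 4.5 genes and ratios of summed fold enrichment of 4.24 to 5.48. A group left with 1 list was counted on that list alone, with no second call required. On that basis 6 to 7 genes were called in every palbociclib list kept, 2 to 3 in every DMSO list kept, and 3 to 4 were gained. With the replicate number as a block the difference was 4 genes (exact sign-flip permutation p = 0.5, the smallest possible). Whether the numbers pair the libraries is unknown. Depth is unknown, and 2 libraries per group, a single control library of each kind and a peak threshold limit every absence of a call.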
